A study of Mus musculus with 6 samples.

Results

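Calcineurin and NFAT signaling was described here through 10 genes, found by their symbols among the 52550 mouse genes of the deposited table: Ppp3ca, Ppp3cb, Ppp3cc and Ppp3r1, which encode subunits of the phosphatase calcineurin, Nfatc1, Nfatc2, Nfatc3 and Nfatc4, which encode the transcription factors it acts on, and Rcan1 and Rcan2, which encode regulators of calcineurin. The rule lists them by symbol and uses no measured value, but it was set with earlier results of these data known. All 10 were found and passed the filter on low counts. The samples were skeletal muscle of 3 male FLExDUX4 animals and 3 male wild-type littermates, quadriceps at 13 weeks of age by the labels, whereas the methods of the study name triceps and a younger age. FLExDUX4 mice are hemizygous for an inverted human DUX4 transgene, which leaks at a low level in the absence of a Cre driver, and wild-type mice do not carry it. The level of the transgene was not analysed here. RNA was read with QuantSeq, which reads transcripts near their poly(A) tail whatever their length, and counts of different genes can thus be set side by side without division by length.

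Calcineurin is a phosphatase that is switched on by calcium and calmodulin. It is built from a catalytic subunit and a calcium-binding regulatory subunit, and it removes phosphates from NFAT proteins, which then enter the nucleus until kinases send them back. In skeletal muscle the pathway is known for its part in the slow fiber program, and Rcan1 is itself a known NFAT target that feeds back on calcineurin.

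Values are counts summed over the 3 mice of a genotype. The FLExDUX4 total held 13110125 counts on mouse genes and the wild-type total 18367364, and both were scaled by the TMM method to 1000000 counts (CPM). Values of single mice were not used, so no difference below has a replicate check and a single mouse may decide it. The intervals (95% confidence intervals, CI) cover counting error only. They excluded a ratio of 1 for 41.1% of all 13396 genes compared, so an interval of this kind says little about the genotypes. The muscle markers Acta1, Ckm, Des, Ttn and Neb summed to 86300 CPM in FLExDUX4 muscle and 86420 CPM in wild-type muscle. Of the hindlimb position genes, Hoxc10 had no count in either group, which allows up to 0.231 CPM in FLExDUX4 muscle and 0.162 CPM in wild-type muscle, and Pitx1 had 0 and 1 counts. The forelimb gene Tbx5 had 14 and 34 counts, and Tbx4, a hindlimb gene, had 10 in each group. These few counts were mixed and did not settle which limb the muscle came from, and the tissue is called skeletal muscle here.

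The main picture is one of similar levels. Of the 10 genes, 5 were above and 5 below a log2 ratio (FLExDUX4 over wild-type) of 0, with a median of -0.01, and the median of all genes compared was -0.001. A change of at least 1.5-fold was seen for 1 of the 10, Nfatc2, against 26.8% of all genes compared. Of all genes compared, 13.2% were at least 1.5-fold higher and 13.5% at least 1.5-fold lower. The share depends on depth: it was 2.62% for the 4577 genes with 500 or more counts over both groups, to which 7 of the 10 belong. The counting interval excluded 0 for 4 of the 10 genes, a share close to that of all genes given above, and for 3 of the 7 genes with 500 or more counts, against 46.1% of all genes at that depth. Scaled to the totals of the added spike-in RNAs instead of TMM, every log2 ratio moved by -0.28, which put 9 of the 10 genes and the median gene of the whole table (-0.28) below 0. Under that scaling 7.82% of all genes compared were at least 1.5-fold higher and 23.7% at least 1.5-fold lower, and of the 10 only Nfatc2 was past 1.5-fold.

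**Figure D1:**
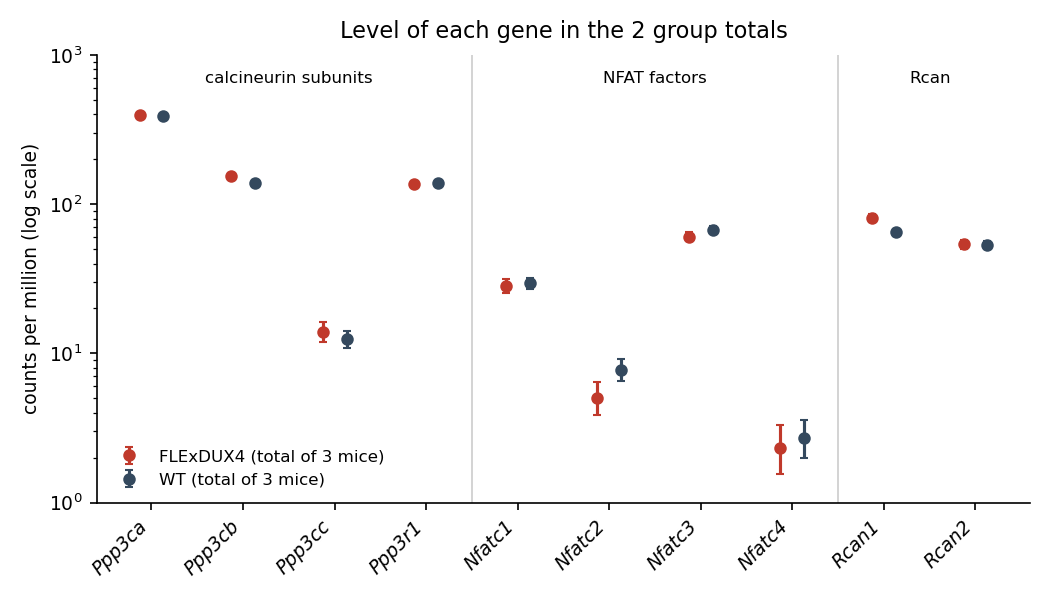
Level of the 10 genes in the 2 group totals, in CPM on a log axis, with exact 95% Poisson intervals for counting error; red points are FLExDUX4 and dark points wild-type, each the total of 3 mice. The levels run from 395 CPM for Ppp3ca to 2.31 CPM for Nfatc4, and paired points lie close together except for Nfatc2 and Rcan1.

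Of the 4 calcineurin subunit genes, 3 were the best expressed of the 10 genes, and Ppp3cc was well below them. Ppp3ca, the gene of the alpha catalytic subunit, lies on chromosome 3 of GRCm38 (136670124 to 136937727). It had 5126 counts in FLExDUX4 muscle and 7209 in wild-type muscle, or 395 and 388 CPM. Its log2 ratio was 0.03 (CI -0.03 to 0.08), which held 0 and was among the smallest of the 10. Among the genes with 500 or more counts, 89.9% lay at least as far from 0.

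Ppp3cb, the gene of the beta catalytic subunit, lies on chromosome 14 (20499364 to 20546573). It had 2007 counts against 2579, or 154.7 and 139 CPM. The log2 ratio was 0.16 (CI 0.07 to 0.24), and -0.12 under spike-in scaling. A ratio this far from 0 was ordinary for its depth, since 45.2% of the genes with 500 or more counts lay at least as far. Ppp3cc, the gene of the gamma catalytic subunit (chromosome 14), was much lower, with 181 counts against 232, or 13.95 and 12.5 CPM. Its log2 ratio was 0.16 (CI -0.13 to 0.45).

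The make-up of the catalytic subunits does not depend on how the totals are scaled. Ppp3ca took 70.1% of their 7314 counts in FLExDUX4 muscle (CI 69% to 71.1%) and 71.9% of 10020 in wild-type muscle (CI 71.1% to 72.8%). Ppp3cb took 27.4% (CI 26.4% to 28.5%) and 25.7% (CI 24.9% to 26.6%). Both groups thus held the same order, alpha above beta above gamma, with Ppp3cc at 2.47% and 2.32%. The Ppp3cb to Ppp3ca ratio was 0.392 in FLExDUX4 muscle and 0.358 in wild-type muscle, a relative difference of 1.09-fold (CI 1.02 to 1.17).

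Ppp3r1 encodes the regulatory subunit calcineurin B (chromosome 11, 17159263 to 17200375). It had 1774 counts against 2584, or 136.7 and 139.2 CPM, and a log2 ratio of -0.03 (CI -0.11 to 0.06). For every 100 counts on the catalytic subunits there were 24.25 on Ppp3r1 in FLExDUX4 muscle and 25.79 in wild-type muscle, a relative ratio of 0.94 (CI 0.88 to 1.01). The annotated span of another gene, Wdr92, overlaps the 3′ end of Ppp3r1 on the same strand, with 116 and 164 counts of its own, and how the authors' counting divided reads between them is not given in the sources used here. Ppp3r2, the testis form of calcineurin B, had 5 counts in FLExDUX4 muscle and 0 in wild-type muscle, and did not pass the filter on low counts.

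The 4 NFAT genes summed to 1247 counts in FLExDUX4 muscle and 1990 in wild-type muscle, or 96.11 and 107.2 CPM. Each of the 4 had a log2 ratio below 0, from -0.05 to -0.63, and 2 of the 4 intervals held 0. Of all 13396 genes compared, 6710 were below 0, and 58.9% had an interval that held 0. The log2 ratio of their sum was -0.16 (CI -0.26 to -0.06). Set against the catalytic subunits, there were 17.05 counts on NFAT genes for every 100 in FLExDUX4 muscle and 19.86 in wild-type muscle, a relative ratio of 0.86 (CI 0.79 to 0.93) that no scaling can change.

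Nfatc3 was the main NFAT gene of this muscle (chromosome 8, 106058840 to 106130537), with 784 counts against 1250, or 60.43 and 67.35 CPM. The log2 ratio was -0.16 (CI -0.29 to -0.03), and 45% of the genes with 500 or more counts lay at least as far from 0. It took 62.9% of the NFAT counts in FLExDUX4 muscle and 62.8% in wild-type muscle. The gene Esrp2 overlaps its 3′ end on the opposite strand and had no count in either group.

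Nfatc1, whose protein is known to act in slow fibers (chromosome 18), had 368 counts against 546, or 28.36 and 29.42 CPM. Its log2 ratio of -0.05 (CI -0.25 to 0.14) held 0. It took 29.5% of the NFAT counts in FLExDUX4 muscle and 27.4% in wild-type muscle. Nfatc4 (chromosome 14) was the lowest of the 10 genes, with 30 counts against 50, or 2.31 and 2.69 CPM. Its log2 ratio was -0.21 (CI -0.92 to 0.46), and no difference was detectable at this depth.

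Nfatc2 was the gene that differed most (chromosome 2, 168476410 to 168601657). It encodes an NFAT factor best known from T cells, and in muscle it is known to act in the growth of myofibers. It had 65 counts in FLExDUX4 muscle (CI 50.2 to 82.8) and 144 in wild-type muscle (CI 121.4 to 169.5), or 5.01 and 7.76 CPM. The fold was 0.65 (CI 0.47 to 0.87), a log2 ratio of -0.63 (CI -1.08 to -0.20), and -0.90 under spike-in scaling. Of the 4723 genes with at least 100 but under 500 counts, 10.6% were at least 1.5-fold lower and 9.38% were at least as low as Nfatc2, so a difference of this size was not rare at this depth. Within the NFAT genes, its share was 5.21% in FLExDUX4 muscle (CI 4.05% to 6.6%) and 7.24% in wild-type muscle (CI 6.14% to 8.46%), and these intervals overlapped. Against the other NFAT genes together, its relative ratio was 0.705 (CI 0.51 to 0.96).

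Markers of other cell types were read beside Nfatc2. Of 6 leukocyte markers, 3 passed the filter, and the summed level of the list was 8.94 CPM in FLExDUX4 muscle and 9.54 CPM in wild-type muscle. The macrophage genes Cd68 and Adgre1 had 23 counts against 52 and 24 against 55, whereas Ptprc, common to all leukocytes, had 66 against 70, a log2 ratio of 0.43 (CI -0.08 to 0.94). The T cell gene Cd3e had 3 counts against 0, and Cd3d and the B cell gene Cd79a had no count in either group. The 4 endothelial markers summed to 153.3 and 178 CPM. Among them Tek was lower, with 80 counts against 178 and a log2 ratio of -0.63 (CI -1.04 to -0.25), as was Kdr, at -0.56. The other markers were near 0: Pecam1 was at 0.07, and Cdh5, with 505 counts against 736, was at -0.03 (CI -0.19 to 0.14). The part of these cell types in the Nfatc2 result was not tested. In whole muscle, fewer cells of a type and less RNA per cell cannot be told apart.

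**Figure D2:**
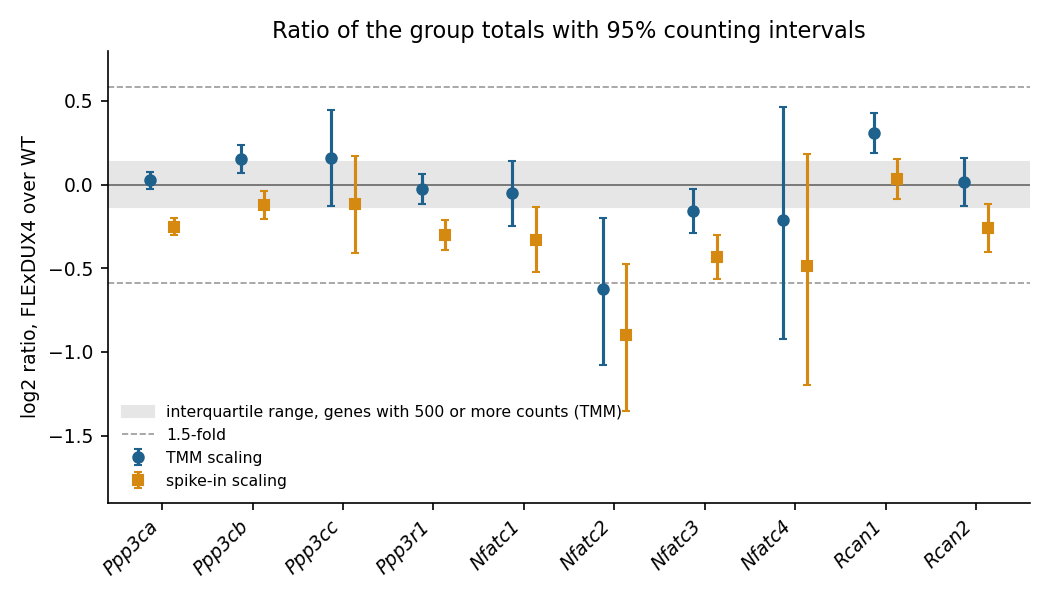
The log2 ratio of the group totals, FLExDUX4 over wild-type, for each of the 10 genes with its 95% counting interval, under TMM scaling (blue circles) and spike-in scaling (orange squares); dashed lines mark 1.5-fold and the grey band is the interquartile range of the genes with 500 or more counts (-0.14 to 0.14). Nfatc2 lies past the lower dashed line, Rcan1 lies above the band under TMM and near 0 (0.03) under spike-in scaling, and the other genes lie near or within the band under TMM.

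Rcan1 was the gene with the highest ratio. Its protein binds calcineurin and restrains it, and the gene has a pair of well known starts, of which the downstream one, within the gene, is driven by NFAT. The RefSeq promoter windows of both starts (build GRCm38.p6, 250 bases before to 50 after each start, on the minus strand) are printed because the downstream window is where the pathway acts back on this gene. Capitals mark the letters GGAAA (the core bound by NFAT), TGACTCA (AP-1), TGACGTCA (CRE) and CACGTG (E-box), each searched on both strands, and no 2 matches overlap.
Rcan1 upstream start, chr16:92466120-92466419: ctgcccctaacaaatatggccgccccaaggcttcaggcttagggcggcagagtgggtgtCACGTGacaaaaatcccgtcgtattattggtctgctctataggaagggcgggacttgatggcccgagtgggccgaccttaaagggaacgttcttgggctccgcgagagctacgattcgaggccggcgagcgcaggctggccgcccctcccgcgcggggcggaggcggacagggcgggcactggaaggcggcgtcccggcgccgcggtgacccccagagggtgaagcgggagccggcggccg
Rcan1 downstream start, chr16:92400029-92400328: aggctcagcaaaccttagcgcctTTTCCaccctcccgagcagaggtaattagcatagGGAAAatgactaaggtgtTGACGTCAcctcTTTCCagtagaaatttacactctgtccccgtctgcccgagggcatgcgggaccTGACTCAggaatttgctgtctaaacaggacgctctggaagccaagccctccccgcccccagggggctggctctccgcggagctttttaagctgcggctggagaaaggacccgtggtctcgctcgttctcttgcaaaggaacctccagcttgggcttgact

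The downstream window held 3 matches to the NFAT core, 1 to the AP-1 letters and 1 to the CRE letters, whereas the upstream window held none of these and 1 E-box. The core matches began 227, 193 and 163 bases before the start. Of the 32851 RefSeq promoter windows, 61.3% held the NFAT core at least once and 9.42% at least 3 times, 5.2% held the AP-1 letters, 1.79% the CRE letters and 7.15% the E-box. Windows on chromosome 18, where Nfatc1 lies, were left out for the 10 genes. Windows of 7 of the 10 genes were read, 12 windows in all, and 7 of the 12 held the NFAT core. The downstream Rcan1 window did not stand out among them: the Ppp3cb window held 4 matches to the core. A window of Nfatc2 and the window of Nfatc4 held 3 each. These matches describe letters, not binding.

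Rcan1 (chromosome 16, 92391953 to 92470867) had 1042 counts in FLExDUX4 muscle (CI 979.7 to 1107.2) and 1202 in wild-type muscle (CI 1135 to 1271.9). That is 80.31 and 64.76 CPM, a fold of 1.24 (CI 1.14 to 1.35) and a log2 ratio of 0.31 (CI 0.19 to 0.43). Among the genes with 500 or more counts, 8.56% were at least as high and 16.8% lay at least as far from 0. Scaled to the spike-ins the ratio was 0.03 (CI -0.09 to 0.16), so its size, and whether the interval held 0, rest on the scaling. That scaling moves every ratio by the same amount, so the order of the 10 genes could not change. The assay does not separate the starts: GENCODE M21 lists 5 coding transcripts with 5 starts, of which 4 end within 6 bases of each other, among them the transcript from the downstream start.

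Rcan2, whose product also binds calcineurin (chromosome 17), had 698 counts against 987, or 53.8 and 53.18 CPM. The log2 ratio was 0.02 (CI -0.13 to 0.16), and 93.2% of the genes with 500 or more counts lay at least as far from 0. Rcan1 thus took 59.9% of the counts of the pair in FLExDUX4 muscle (CI 57.5% to 62.2%) and 54.9% in wild-type muscle (CI 52.8% to 57%). The Rcan1 to Rcan2 ratio was 1.49 and 1.22, a relative difference of 1.23-fold (CI 1.08 to 1.40). For every 100 counts on the catalytic subunits there were 14.25 on Rcan1 in FLExDUX4 muscle and 12 in wild-type muscle, a relative ratio of 1.19 (CI 1.09 to 1.30), while Rcan2 gave 9.54 and 9.85. These comparisons do not depend on scaling, and like all others here they compare the group totals, not the mice. Rcan3, the third gene of the family, had 22 counts against 51, a log2 ratio of -0.68 with an interval from -1.49 to 0.05.

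Most fibroblast and adipocyte markers also had ratios above 0 under TMM. The 4 fibroblast markers were all above 0 under TMM, with log2 ratios from 0.04 to 0.53, and summed to 1075 CPM in FLExDUX4 muscle and 957.6 in wild-type muscle. Dcn, the gene of decorin, had the most counts, 9583 against 13359, and a ratio of 0.04. With spike-in scaling the median of the list was -0.01, with Col1a1 and Lum at 0.26 and 0.20 and Dcn and Pdgfra at -0.24 and -0.23. Of the 4 adipocyte markers 3 were above 0, and the list summed to 44.93 and 32.92 CPM, with a median of 0.30, or 0.03 with spike-in scaling. Adipoq, the gene of adiponectin, had 294 counts against 258, a log2 ratio of 0.71 (CI 0.46 to 0.95), whereas Lep, the gene of leptin, had 12 against 31, a ratio of -0.82 (CI -1.95 to 0.15). The part of these cells in the Rcan1 result was not tested.

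**Figure D3:**
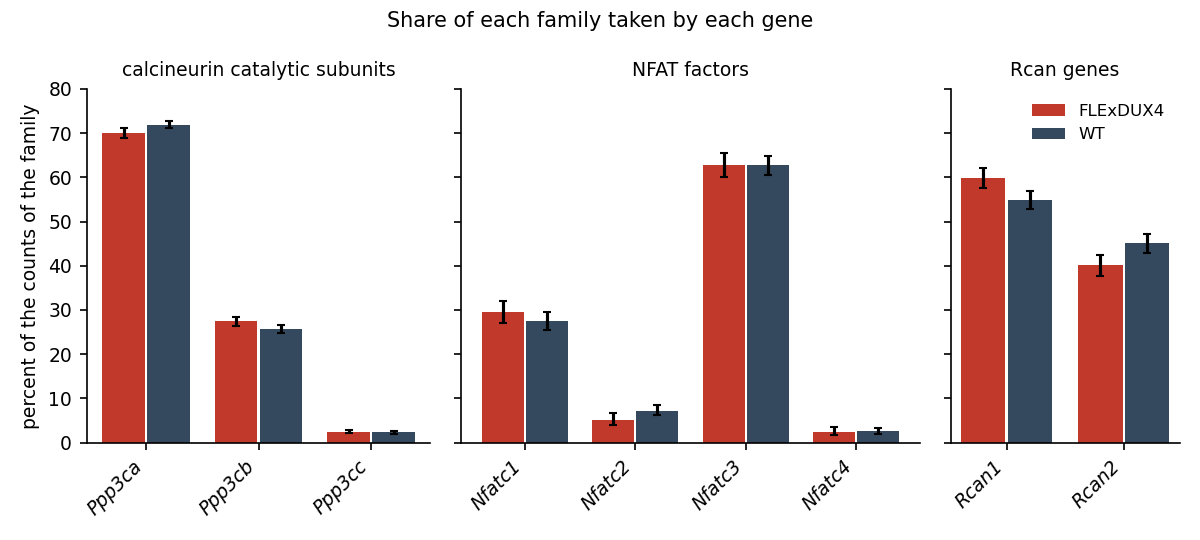
Percent of the counts of each family that fell on each gene, in FLExDUX4 (red) and wild-type (dark) totals, with 95% Clopper-Pearson intervals for counting error. Ppp3ca and Nfatc3 hold most of their families in both groups (70.1% and 71.9%, 62.9% and 62.8%), and Rcan1 holds 59.9% against 54.9% of the Rcan counts.

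The order of the levels was nearly the same in both groups. In wild-type muscle Ppp3ca was followed by Ppp3r1 and Ppp3cb, at 139.2 and 139 CPM, which their intervals did not separate. They were followed by Nfatc3 and Rcan1, whose intervals also overlapped (63.67 to 71.19 and 61.15 to 68.53 CPM). In FLExDUX4 muscle Ppp3cb lay above Ppp3r1 without overlap (148 to 161.6 and 130.4 to 143.2 CPM), Rcan1 lay above Nfatc3 without overlap (75.51 to 85.34 and 56.27 to 64.81 CPM), and the intervals of Nfatc3 and Rcan2 overlapped. Nfatc1, Ppp3cc, Nfatc2 and Nfatc4 followed in that order in both groups.

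Other genes of the pathway were read from 6 lists of 61 genes, of which 58 passed the filter. Of these, 2 were at least 1.5-fold higher and 3 at least 1.5-fold lower, and the median log2 ratio was -0.03. Most of the 58 were well counted, so the count is read by depth: 1 of 47 genes with 500 or more counts was past 1.5-fold (2.62% of all genes at that depth), 1 of 6 with at least 100 but under 500 (21.4%) and 3 of 5 with under 100 (59.8%). With spike-in scaling none of the 58 was higher and 5 were lower, against 7.82% and 23.7% of all genes, and the median was -0.31. Only 3 genes, Rcan3, Akap5 and Homer3, were past 1.5-fold under both scalings. Upstream of calcineurin, 10 of 11 calmodulin and calcium channel genes passed, none of them past 1.5-fold, with a median of 0.29, and 0.01 when scaled to the spike-ins. The calmodulin genes Calm2 and Calm3 lay on the other side of 0, at -0.14 (CI -0.21 to -0.07) and -0.12 (CI -0.21 to -0.03). The calcium sensors of the reticulum, Stim1 and Stim2, were at -0.09 and -0.11, and Stim1 had the most counts of the list, 2759 against 4196. The 6 channels that passed, singled out after their values were seen, were each above 0 under TMM, from 0.27 for Trpc1 (-0.01 with spike-in scaling) to 0.55 for Itpr3, which had 40 counts against 39 (CI -0.12 to 1.23). Among them, the inositol trisphosphate receptor genes Itpr1 and Itpr2 had 321 counts against 331 and 379 against 409, with ratios of 0.47 (CI 0.25 to 0.70) and 0.41 (CI 0.20 to 0.61). Orai1, the gene of the store-operated channel that Stim1 opens, was at 0.34 (CI 0.13 to 0.55), or 0.07 with spike-in scaling.

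Of 12 other regulators and anchors of calcineurin, 10 passed, 2 were at least 1.5-fold higher and 2 lower (13.2% and 13.5% of all genes), and the median was 0.02. With spike-in scaling none was higher and 2 were lower (7.82% and 23.7% of all genes). Lmcd1, which encodes a LIM domain protein known to promote calcineurin signaling in muscle, had 1216 counts in FLExDUX4 muscle and 988 in wild-type muscle, or 93.72 and 53.23 CPM. Its log2 ratio of 0.82 (CI 0.69 to 0.94) was the largest among the pathway genes with 500 or more counts, and it was 0.54 when scaled to the spike-ins. Cabin1, the gene of a calcineurin inhibitor, had 148 counts against 139, a ratio of 0.61 (CI 0.26 to 0.95), or 0.33 with spike-in scaling. Akap5, the gene of an anchoring protein, had 0 counts against 21, and the interval of its log2 ratio lay below -1.86. It passed the filter only through its wild-type counts, so it could only be counted as lower. Rcan3, described above, was the other lower gene. Myoz1, the gene of a calsarcin that ties calcineurin to the Z-disc of fast fibers, had the most counts, 19662 against 28087, and a ratio of 0.002 (CI -0.02 to 0.03).

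Of the 10 genes for kinases that return NFAT to the cytoplasm and for Homer proteins that compete with calcineurin for NFAT, none was 1.5-fold higher and 1 was lower (13.2% and 13.5% of all genes), with a median of -0.04. With spike-in scaling Dyrk2, the gene of a kinase, was a second lower gene at -0.62, against -0.35 under TMM. Under TMM 4 of the 10 genes were above 0 and 6 below. Among those above, Dyrk1b was at 0.54 (CI 0.27 to 0.82), Csnk1e at 0.30 (CI 0.17 to 0.43) and Gsk3b at 0.27 (CI 0.20 to 0.34). With spike-in scaling these 3 were at 0.27, 0.03 and -0.01. Among those below under TMM, Gsk3a was at -0.19, Csnk1d at -0.10 and Dyrk1a at -0.07. The gene lower under both was Homer3, with 15 counts against 75 and a log2 ratio of -1.77 (CI -2.71 to -0.99). Among genes under 100 counts, 59.8% were past 1.5-fold in either direction and 31% were at least 1.5-fold lower. Their lower quartile was -0.80, so Homer3 lay well below it, and the share as low as Homer3 was not computed. Csnk1a1, with the most counts, was at 0.06 (CI -0.01 to 0.12). Of 8 genes for other substrates and partners none was past 1.5-fold under TMM, and with spike-in scaling Crtc1 was, at -0.74 against -0.47. Mef2c, a muscle transcription factor that works beside NFAT, had 15510 counts against 24133 and a ratio of -0.12 (CI -0.15 to -0.09).

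**Figure D4:**
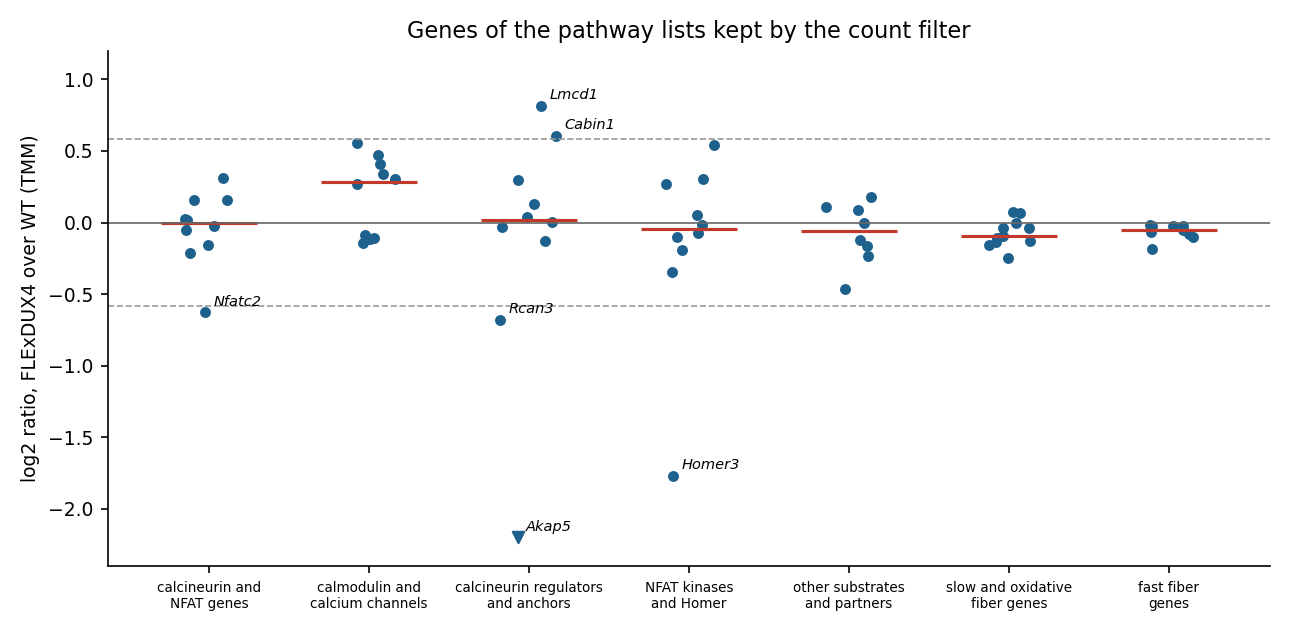
The log2 ratio under TMM scaling for the genes of each list that passed the count filter, one point a gene, with the list's median as a red line and 1.5-fold as dashed lines; the triangle marks Akap5, which has 0 counts in FLExDUX4 muscle and lies below the axis. Points past 1.5-fold are named, and the slow and fast fiber genes lie within 0.25 of 0.

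The fiber genes that calcineurin and NFAT are known to act on all had 500 or more counts, where 2.62% of all genes were past 1.5-fold, so that a count of 0 among them is ordinary. Of 11 slow and oxidative fiber genes none was past 1.5-fold, with ratios from -0.25 to 0.07 and a median of -0.09. Myh7, the slow myosin heavy chain, had 1268 counts against 1865, a log2 ratio of -0.04 (CI -0.14 to 0.06), and Mb, the gene of myoglobin, had 24079 against 34467, a ratio of -0.001 (CI -0.03 to 0.02). The lowest was Myl2, a slow myosin light chain, with 1364 against 2314 and a ratio of -0.25 (CI -0.34 to -0.15). Of 9 fast fiber genes none was past 1.5-fold, with ratios from -0.19 to -0.02. Myh4, the IIb myosin heavy chain and the most counted of them, had 384762 counts against 575807 and a ratio of -0.07 (CI -0.07 to -0.06).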

How the data were processed

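QuantSeq libraries were made from muscle RNA, 3 from FLExDUX4 mice and 3 from wild-type littermates. Per the submitters' processing notes, reads were trimmed with cutadapt 1.16, aligned with STAR 2.5.3a to GRCm38 joined to spike-in sequences, and counted with featureCounts 1.6.2. The deposited table holds, for each of 52649 features, the raw count summed by the authors over each genotype. It also holds 6 per-library columns, which no label ties to a sample and which were used in no step (they were not assigned to a genotype by matching their sums to the totals), and the mean, fold changes and p-values of the authors' DESeq2 comparison, which were not used.

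Symbols were taken from the table. TMM factors (edgeR 4.0.16, R 4.3.3) came from the 13396 mouse genes that filterByExpr kept, without the 99 spike-ins. Log2 ratios have a pseudocount of 0.5. Intervals are 95% Clopper-Pearson or, for levels, exact Poisson intervals, and for ratios between genes exact conditional odds ratio intervals (scipy 1.17.1, Python 3.11.15). With 1 total a group, no test was run, and a gene counted as changed at 1.5-fold. The 10 genes and the lists were chosen with earlier results of these data known. Named are the 10 genes and, of each list, the genes past 1.5-fold with an interval that excludes 0 and the gene with the most counts; others were named after their values were seen. Coordinates are from GENCODE M21 (GRCm38), which is newer than the annotation of the deposited table, and are given only where its start equals the deposited one, though not for Nfatc1, whose start also does. Another 2 genes of the pathway lists are not reported here.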

Additional observations from a re-analysis of the deposited data

How the results depend on the processing

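No paired analysis was possible because no column of the table carries a label that ties it to a mouse. Columns were not assigned to a genotype by their values, so leaving out each replicate and the edgeR fit with the replicate number were not run, and no ratio here has a replicate check. The median log2 ratio of the 10 genes, -0.005, was -0.281 with spike-in totals, and the cause of that shift was not tested. It stayed between -0.035 and -0.003 under RLE, upper quartile and gene count totals, no filter and other pseudocounts. Spike-in totals put 7 of the 10 ratios outside their counting intervals and changed the sign of 4. Taken relative to the median gene, an alternative added after seeing the data, all 10 lay inside, but this outcome was fixed. Spike-in scaling shifts every log2 ratio by the same amount, so taking off the median nearly restores the TMM values. It is therefore no check of the scaling. Gene count totals changed the sign of 2 genes, both within their intervals. The number of the 10 genes past 1.5-fold was 1 under all 5 other scalings and filters and both other pseudocounts. It was also 1 at the lower of the other fold thresholds tried, and 0 at 2-fold, thresholds that 45.5% and 13.4% of all genes passed. For the 58 pathway genes the number was 5 at 1.5-fold, 12 at that lower threshold and 2 at 2-fold, and 4 with gene count totals. With spike-in totals it was again 5, but all 5 were lower: Lmcd1 and Cabin1 were no longer past 1.5-fold, and Dyrk2 and Crtc1 were. Without Ppp3ca, Ppp3cb took 91.7% of the remaining catalytic counts in both groups, and without Nfatc3, Nfatc1 took 79.5% of the remaining NFAT counts in FLExDUX4 and 73.8% in wild-type muscle.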
